A study of Mus musculus with 6 samples.

Results

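This account covers genes of ribosome biogenesis and of RNA polymerase I transcription in thymic lymphomas of Ikaros-deficient mice. The members were taken from a list of 50 gene symbols, and every probe set of the array annotated with exactly 1 of these symbols was collected. A probe set is a group of short probes that reads 1 transcript. Each gene was represented by its probe set with the highest mean over the 6 arrays, which gave 49 measured members of 18193 genes named on the array. Mrto4, the remaining symbol, had no probe set annotated with it alone and is not analysed here. All 49 measured members passed the filter on dim probe sets, as did 12042 genes in all.

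Tumour RNA came from 6 mice, each with its own thymic lymphoma and its own Affymetrix array. All 6 were homozygous for IkL, an allele that lowers the lymphoid transcription factor Ikaros, and carried the CD4-Cre transgene, which is driven by the Cd4 promoter and so acts in developing T cells. The Notch1+/+ group held 3 mice aged 18 to 20 weeks with IkL/L Notch1+/+ CD4-Cre+ as genotype. The Notch1f/f group held 3 mice aged 8 to 10 weeks with IkL/L Notch1f/f CD4-Cre+ as genotype, in which Cre can remove promoter and exon 1 sequence of Notch1 from floxed alleles. Age and genotype changed together and cannot be told apart. The tumours are numbered in the order of their deposit within each group, and the numbers pair no mice.

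Ribosomes are assembled in the nucleolus, where RNA polymerase I transcribes the ribosomal RNA genes into a long precursor. Small nucleolar ribonucleoproteins (snoRNPs) modify the precursor, and a large set of assembly factors folds, cuts and trims it into the RNAs of the small (40S) and large (60S) subunits. Growing and dividing cells make many ribosomes, and the genes of these factors are classic targets of the transcription factor Myc, which Notch1 activates in thymocytes and T cell leukaemia.

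The labels call the material transformed T cells, collected by mechanical disruption of the tumour. The brightest Notch1 probe set read 3636, 2532 and 2838 in the Notch1+/+ tumours and 3294, 3043 and 3418 in the Notch1f/f tumours. Whether it lies in the deleted part is not known here, so it checks no label. Of 12 markers of thymocytes and T cells, 11 were measured. Their summed MAS5 intensity, the array's signal on a linear scale, was 21392 to 22774 in the Notch1+/+ tumours and 24526 to 29689.5 in the Notch1f/f tumours. Macrophage markers (9 measured of 10) summed to 190.2 to 783 and to 1067 to 1715, B cell markers (7 of 8) to 84.4 to 96.7 and to 134 to 335.5, and fibroblast markers (6 of 6) to 229 to 1269.8 and to 55.3 to 124. Dendritic cell, neutrophil, erythroid, endothelial, thymic epithelial and adipocyte markers summed to at most 351 on any array. NK cell markers summed to 1619 to 2499 and to 2761 to 4490.3, nearly all of it Gzma, while Ncr1, a defining NK marker, reached at most 4.50. In bulk tumours, fewer cells of a type and less RNA per cell cannot be told apart. The 3' control probe set for 18S ribosomal RNA read 64.8 to 125 in the Notch1+/+ tumours and 249.5 to 319 in the Notch1f/f tumours. The 5' one read 24.3 to 88.8 and 195.9 to 228.2, and the middle one 44.3 to 130.4 and 183.8 to 350.8. How far these signals follow the ribosomal RNA content of the tumours was not tested. By group means, Notch1f/f tumours had more of 6 macrophage markers and less of 3, more of all 7 B cell markers and less of all 6 fibroblast markers. Groups did not overlap in 4 macrophage markers that were higher and 1 that was lower, in 2 B cell markers and in 0 fibroblast markers. Of all genes, 9.21% were higher and 9.14% lower without overlap. Ms4a1, Pax5 and Ebf1 rose above the Notch1+/+ range only in Notch1f/f tumour 3, at 22.1, 22.9 and 16.5. Pax5, Ebf1 and the fibroblast marker Pdgfra did not pass the filter on dim probe sets. The ratio of 3' to 5' signal of the Gapdh controls was 0.767 to 1.07 and 0.836 to 1.03. That of the actin controls was 2.23, 1.365 and 1.38 in Notch1+/+ tumours 1 to 3. In Notch1f/f tumours 1 to 3 it was 1.64, 1.35 and 1.58. Within the Notch1f/f group both ratios were lowest in tumour 2. The part of these differences in the results below was not tested.

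Nearly all of the 49 measured members had lower mean levels in the Notch1f/f lymphomas, yet none passed the test adjusted over the whole array. The members had been chosen with earlier results of these data known. The difference is given on the scale of log2(intensity + 16) as Notch1f/f minus Notch1+/+. It lay below 0 for 48 of 49 members, where 51.6% of all tested genes lay below 0. The median was -0.53 over the members and -0.01 over all genes. The members ranged from -1.11 for Gnl3 to 0.06 for Polr1c. A difference under -0.5 was found in 27 members and in 11.0% of genes, and one under -1 in 4 members and in 1.34% of genes.

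No member was called in either direction at an adjusted p of 0.05 (limma, Benjamini-Hochberg over 27022 probe sets), and the smallest adjusted p of a member was 0.215. Over all genes the same rule called 0.0249% lower and 0.0166% higher. At an adjusted p of 0.10 no member was called either, beside 0.108% of genes lower and 0.133% higher. At an unadjusted p of 0.05 in limma, 23 of 49 members were lower and 0 higher, against 6.21% of genes lower and 6.97% higher. All 3 Notch1f/f tumours lay below all 3 Notch1+/+ tumours in 20 members, where 9.14% of genes showed this, and 0 members had the opposite order, where 9.21% of genes did. An exact two-sided permutation test over the 6 tumours cannot give a p under 0.1, the value it gave for each of these 20 genes.

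**Figure D1:**
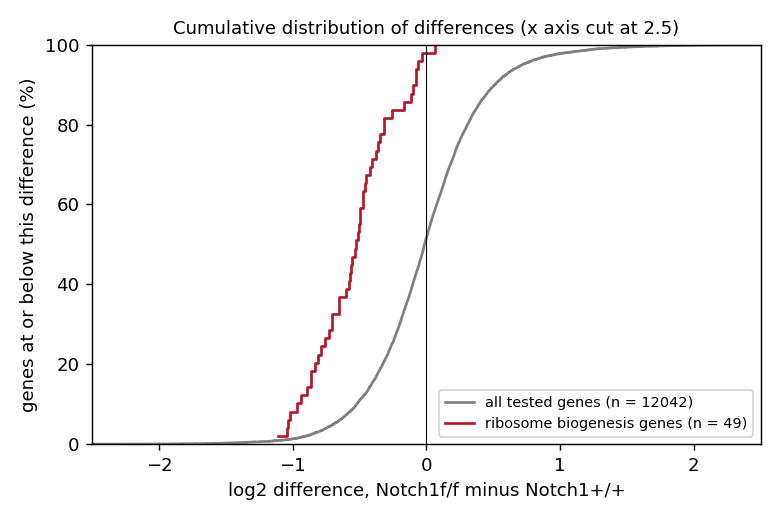
Cumulative distribution of the log2 difference (x axis, Notch1f/f minus Notch1+/+, cut at 2.5 on either side) over the 49 ribosome biogenesis genes in red and all 12042 tested genes in grey (y axis, percent of genes). The red curve lies left of the grey one, with medians of -0.53 and -0.01.

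The lower levels belonged mainly to Notch1f/f tumours 1 and 3. After centring each member on its mean over the 6 arrays, the median member stood at 0.19, 0.24 and 0.35 in Notch1+/+ tumours 1, 2 and 3. It stood at -0.43, 0.12 and -0.51 in Notch1f/f tumours 1, 2 and 3. Notch1f/f tumour 2 thus lay close to the Notch1+/+ tumours and the other 2 far below.

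Counted gene by gene, Notch1f/f tumour 1 lay below all 3 Notch1+/+ tumours in 45 members and Notch1f/f tumour 3 in 42, where 31.9% and 31.1% of all genes did. For Notch1f/f tumour 2 the count was 22, beside 21.6% of all genes, and in 26 members it lay within the Notch1+/+ range. It had the highest value of the 3 Notch1f/f tumours in 43 members, a count that was not made over all genes. The lowest of the 6 values was found in Notch1f/f tumour 1 or 3 for 45 members, and the highest in a Notch1+/+ tumour for 45. Of all 12042 genes, the lowest value lay in Notch1f/f tumour 1 for 2237 and in Notch1f/f tumour 3 for 2579. The highest lay in Notch1+/+ tumours 1, 2 and 3 for 2574, 1781 and 1991. The median SD between tumours of a group was 0.33 on the log2 scale in the Notch1f/f group and 0.19 in the Notch1+/+ group. Over all genes it was 0.26 and 0.25.

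**Figure D2:**
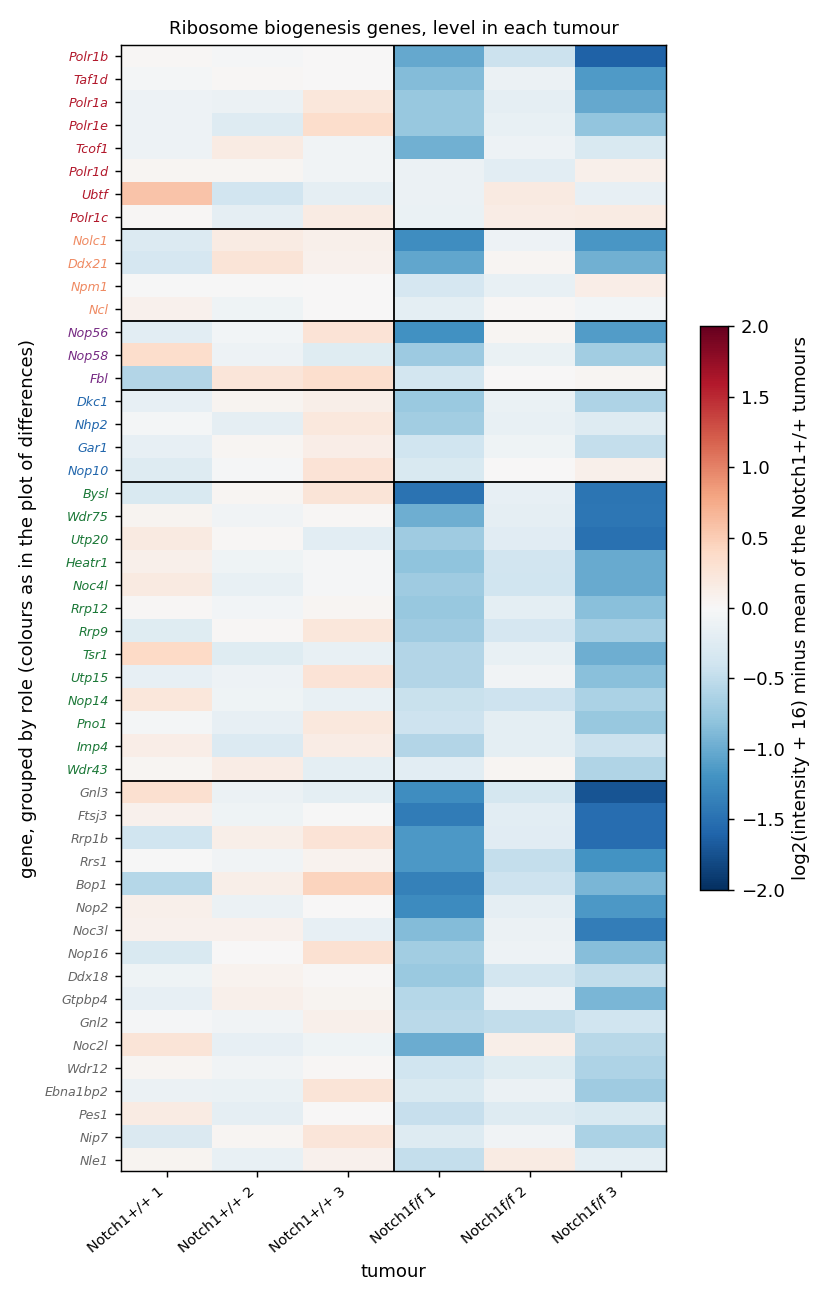
Level of each of the 49 genes (rows, grouped by role) in each of the 6 tumours (columns), as log2(intensity + 16) minus the mean of the 3 Notch1+/+ tumours. Blue marks lower and red higher values. The columns of Notch1f/f tumours 1 and 3 are blue for most genes, and that of Notch1f/f tumour 2 is near the Notch1+/+ columns.

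Leaving out 1 tumour changed the counts. Without Notch1f/f tumour 2, 41 members were lower with no overlap (19.4% of all genes) and 32 had an unadjusted p under 0.05 in limma (9.72% of all genes), with a median difference of -0.70. Without Notch1f/f tumour 1 the number at an unadjusted p under 0.05 was 5 (3.03% of all genes), and without Notch1f/f tumour 3 it was 7 (4.03% of all genes). The median difference was then -0.47 and -0.44. Without Notch1+/+ tumour 2 or 3 the number at an unadjusted p under 0.05 was 10 each time, beside 3.50% and 4.76% of all genes. Without Notch1+/+ tumour 1 the groups did not overlap in 31 members, against 17.1% of all genes. No member passed an adjusted p of 0.05 in limma with any tumour left out.

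RefSeq windows (GRCm38.p6) from 250 bases before to 50 bases after the start were given for 43 of the 50 symbols, 42 of them measured, and a pair of motifs was searched on both strands. The first was CACGTG, the E-box that Myc and Max bind, which reads the same on both strands. It was found in 8 of 42 members and in 11.5% of the 9745 tested genes with a window. The 8 stretches are printed because Myc is the best known activator of this gene group. The capitals mark the E-box, and the strand is that of the gene.
Wdr43, chr17:71616220-71616249, plus strand: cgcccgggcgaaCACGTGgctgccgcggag
Utp20, chr10:88826765-88826789, minus strand: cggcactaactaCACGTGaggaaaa
Imp4, chr1:34439696-34439725, plus strand: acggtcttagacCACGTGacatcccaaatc
Tsr1, chr11:74898092-74898121, plus strand: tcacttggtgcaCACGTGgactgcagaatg
Pno1, chr11:17211540-17211564, minus strand: tgtacaaccacgCACGTGttcctct
Nop2, chr6:125131811-125131840, plus strand: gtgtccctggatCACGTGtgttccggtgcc
Pes1, chr11:3963965-3963994, plus strand: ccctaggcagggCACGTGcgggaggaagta
Nle1, chr11:82908355-82908384, minus strand: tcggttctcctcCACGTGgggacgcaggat
The E-box of Nop2 begins 60 bases before the start and that of Imp4 121 before it. The other 6 lie 2 to 37 bases after the start. The members with an E-box had a median log2 difference of -0.43 and those without one -0.54. Over all tested genes the medians were -0.01 in both classes.

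The second motif was TGGGAA, which holds the core bound by Ikaros and is also the core bound by RBPJ, the DNA-binding partner of Notch. It was found in 13 of 42 members and in 26.8% of tested genes with a window. The stretches below come from the named members that hold it, since they include the polymerase genes with the lowest and the highest difference. The capitals mark TGGGAA or, on the opposite strand, TTCCCA.
Polr1b, chr2:129100969-129100998, plus strand: gaggaactacatTTCCCAgaaggccacggg
Polr1c, chr17:46248193-46248222, minus strand: agcacgcgcgcgTGGGAAgagcgtgcgacc
Polr1d, chr5:147077240-147077269, plus strand: ggactcaagtccTGGGAAtagccagccctg
Nop10, chr2:112261887-112261916, plus strand: aatggactacatTTCCCAggatgccttgga
Rrp9, chr9:106477248-106477277, plus strand: cccgctgcgccgTGGGAAcctatcagggct
Tsr1, chr11:74897931-74897960, plus strand: aggactgcagcgTGGGAAaaggcaccacga
Polr1b, with a log2 difference of -1.02, and Polr1c, with 0.06, both hold this motif. Members with it had a median of -0.51 and members without it -0.53. A match in a window is a description of the letters and shows no binding.

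The genes of RNA polymerase I and its factors were lower in 7 of 8 cases, with a median of -0.51, and 4 of 8 had groups that did not overlap, where 51.6% of all genes were below 0 and 9.14% were lower without overlap. Polr1b encodes the second-largest subunit, part of the catalytic core. Its intensity was 288, 278 and 286 in Notch1+/+ tumours 1 to 3 and 132, 206 and 81.7 in Notch1f/f tumours 1 to 3. All 3 Notch1f/f values lay below the narrow Notch1+/+ range, with tumour 3 lowest. The log2 difference was -1.02 ± 0.30 (SE), or 2.03-fold lower (adjusted p = 0.281 in limma).

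Polr1a, which encodes the largest subunit and the other part of the catalytic core, read 201, 199 and 258 against 123, 191 and 99.1. The groups did not overlap, although Notch1f/f tumour 2 came close to the lowest Notch1+/+ value. Taf1d, a subunit of the selectivity factor that recruits the polymerase to its promoter, read 374, 392 and 389 against 204, 352 and 168. The differences were -0.65 ± 0.27 and -0.71 ± 0.27 (limma adjusted p = 0.350 and 0.326). For Taf1d this held for the brightest of 7 probe sets, while the others ranged from -0.63 to 0.68.

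Polr1e, a subunit found only in RNA polymerase I, and Tcof1, the treacle protein that binds the polymerase and its activator, had differences of -0.56 and -0.45. Polr1c and Polr1d, subunits that RNA polymerase I shares with RNA polymerase III, stood close to 0. Polr1c had 406, 353 and 448 against 365, 446 and 452, overlapping groups and a difference of 0.06 ± 0.20 (limma adjusted p = 0.906). It was the single member above 0, and it turned to -0.022 on its other probe set and to -0.024 without Notch1+/+ tumour 2. Polr1d had 2455, 2458 and 2296 against 2205, 2066 and 2578, a difference of -0.08 ± 0.15. Ubtf, the activator UBF that binds ribosomal DNA, had -0.03 ± 0.27, with 753 in Notch1+/+ tumour 1 and 380.3 to 572 elsewhere. Its other probe set, which was dimmer, gave -0.70.

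The 4 nucleolar scaffold genes had a median of -0.39, with Npm1 and Ncl near 0 on their brightest probe sets. Npm1 (nucleophosmin, a histone and ribosome chaperone) read 5788, 5738 and 5857 in the Notch1+/+ tumours and 4592, 5238 and 6337 in the Notch1f/f tumours. The Notch1f/f values spread to both sides of the Notch1+/+ values, with a difference of -0.12 ± 0.14 (limma adjusted p = 0.741). On the other Npm1 probe set, with a mean intensity of 3645, the difference was -0.24 and the groups did not overlap. Ncl (nucleolin, which binds nascent ribosomal RNA) had a difference of -0.07 ± 0.13 on its brightest probe set and -0.53 and -0.76 on the next in brightness. Nolc1, a chaperone of snoRNPs, and Ddx21, a helicase of ribosomal RNA synthesis, had -0.83 ± 0.31 and -0.66 ± 0.31. In both, Notch1f/f tumour 2 lay among the Notch1+/+ tumours on the brightest probe set. On its other probe set Ddx21 had -0.71 without overlap.

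The snoRNP proteins had overlapping groups in all 7 cases, where 9.14% of all genes were lower without overlap and 9.21% higher. Of the proteins of box C/D snoRNPs, which methylate ribosomal RNA, Fbl (fibrillarin, the methyltransferase) read 1468, 2628 and 2806 against 1718, 2235 and 2286. The lowest value was in a Notch1+/+ tumour, and the difference was -0.10 ± 0.25 (limma adjusted p = 0.879), with a value above 0 without Notch1+/+ tumour 2 (0.022), Notch1+/+ tumour 3 (0.070) or Notch1f/f tumour 1 (0.030). Nop56 and Nop58, its scaffold partners, had -0.76 ± 0.32 and -0.51 ± 0.24. Nop56 read 1357 in Notch1f/f tumour 2 and 564 and 604 in the other 2.

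Of the proteins of box H/ACA snoRNPs, which form pseudouridine in ribosomal RNA, Dkc1 (dyskerin, the enzyme) had a difference of -0.50 ± 0.20. Nhp2 and Gar1, which bind beside it, had -0.36 and -0.32. Nop10, the smallest of the 4 proteins, read 1764, 2084 and 2557 against 1702, 2121 and 2276, a difference of -0.06 ± 0.19 (limma adjusted p = 0.899). These groups overlapped almost fully, and the difference was above 0 without Notch1+/+ tumour 3 (0.073) or Notch1f/f tumour 1 (0.057).

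**Figure D3:**
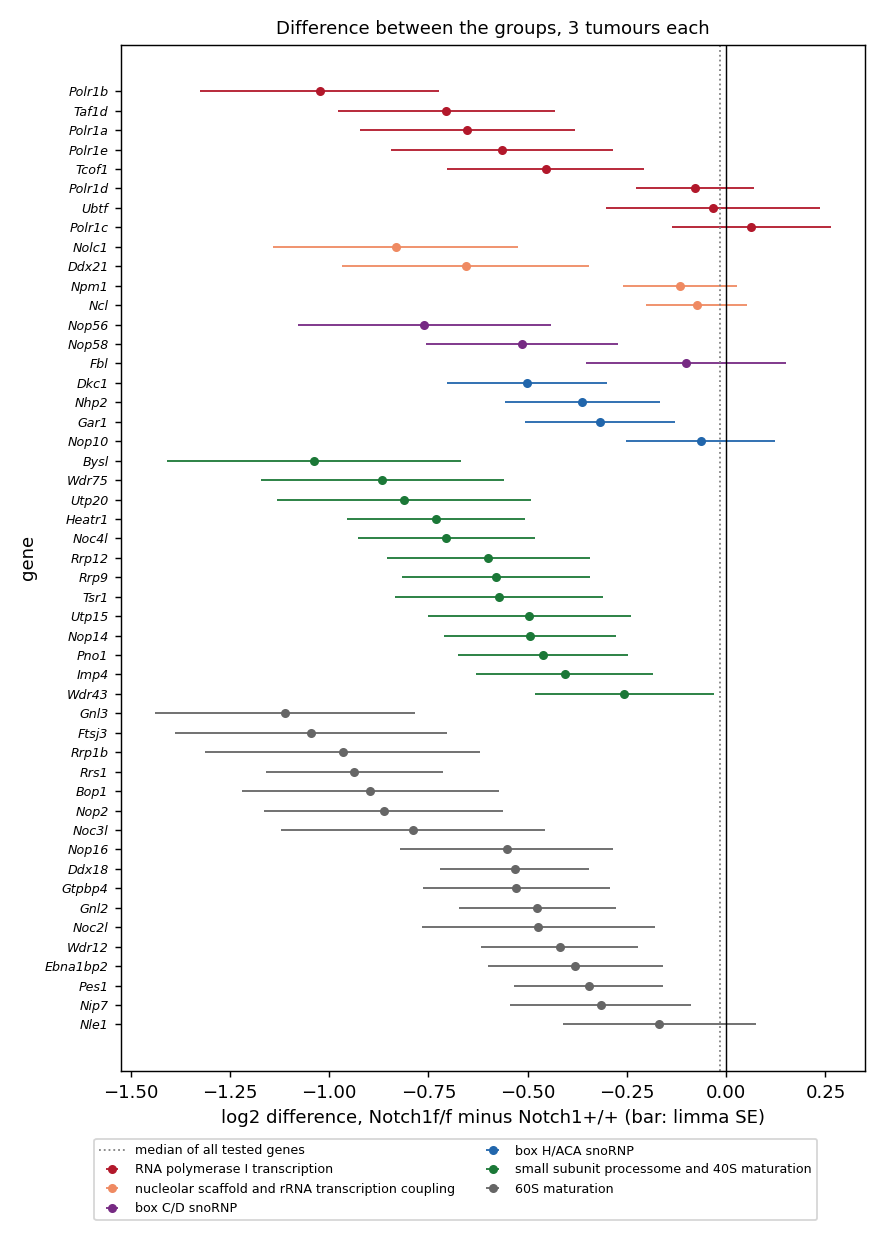
Log2 difference of each of the 49 genes (points, x axis, Notch1f/f minus Notch1+/+) with its limma standard error (bars), coloured by role. Of these genes 48 lie left of 0, and the dotted line marks the median of all tested genes, -0.01.

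All 13 factors of the small subunit processome and of 40S maturation were lower on average, with a median of -0.58. Groups did not overlap in 8, and 8 had an unadjusted p under 0.05 in limma, with Pno1 in the first count alone and Bysl in the second alone. Over all genes these shares were 9.14% and 6.21%. Heatr1, a processome factor that also promotes RNA polymerase I transcription, read 482, 418 and 439.9 against 249, 339.7 and 213. Every Notch1f/f value was below every Notch1+/+ value, and the difference was -0.73 ± 0.22 (limma adjusted p = 0.290).

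Noc4l, a partner of Nop14 in nuclear export of the small subunit, read 601, 473 and 521 against 316, 399 and 256. Its difference was -0.71 ± 0.22, and its 4 probe sets agreed, from -0.77 to -0.64. Nop14 itself had -0.49 ± 0.22, with groups that did not overlap either.

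Wdr75, a processome protein that joins the precursor early, read 483, 442 and 473 against 229, 409 and 161. Utp20, a very large processome scaffold, read 374, 334 and 280.4 against 194, 277 and 106. Rrp9, which binds the U3 snoRNA, read 169, 207 and 241 against 118, 157 and 121. In each of the 3 genes the groups did not overlap and Notch1f/f tumour 2 came nearest to the Notch1+/+ tumours. The differences were -0.87 ± 0.31, -0.81 ± 0.32 and -0.58 ± 0.24. That of Wdr75 was -0.36 on its other probe set and -0.58 without Notch1f/f tumour 3, and that of Utp20 was -0.47 without the same tumour.

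Bysl, which acts late in 40S assembly, had the largest mean difference of the class, -1.04 ± 0.37. Its values were 163, 213 and 251 against 63.4, 182 and 64.8, so that Notch1f/f tumour 2 lay inside the Notch1+/+ range. On its other, dimmer probe set Bysl had -0.97 without overlap. Tsr1, a factor of late cytoplasmic 40S maturation, read 1239, 792 and 841 against 619, 847 and 467. The difference was -0.57 ± 0.26 with overlap, -0.38 when Notch1+/+ tumour 1 was left out and -0.37 when Notch1f/f tumour 3 was. On its other probe set Tsr1 had -1.03 without overlap. Rrp12 and Pno1 also had groups without overlap, with differences of -0.60 and -0.46. Utp15, Imp4 and Wdr43 overlapped on their brightest probe sets, with differences of -0.50, -0.41 and -0.26. On the next brightest of its 3 probe sets Imp4 had -0.29 without overlap, and on the dimmest 0.07 with overlap.

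All 17 measured factors of 60S maturation were lower on average too, with a median of -0.53, groups without overlap in 8 and an unadjusted p under 0.05 in limma in 9, beside 9.14% and 6.21% of all genes. Rrs1, which brings the 5S RNA particle into the large subunit, had the smallest p of all members. It read 1088, 1043 and 1154 in the Notch1+/+ tumours and 484, 784 and 471 in the Notch1f/f tumours. The gap between the groups was wider than the range of the Notch1+/+ values. The difference was -0.94 ± 0.22 (limma adjusted p = 0.215) and lay between -1.17 and -0.81 over all alternatives.

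Gnl3, the nucleolar GTPase nucleostemin, which is high in stem and tumour cells, read 1423, 1048 and 999 against 471, 888 and 333. Notch1f/f tumour 2 was nearest to the Notch1+/+ tumours. The difference of -1.11 ± 0.33 was the largest of all members (limma adjusted p = 0.281). Its relative Gnl2, a GTPase of pre-60S export, read 291, 281 and 318 against 198, 206 and 222. Here all 3 Notch1f/f tumours were close together, and the difference was -0.48 ± 0.20. On the next brightest of its 3 probe sets Gnl2 had -0.11 with overlapping groups, and on the dimmest -0.43 without overlap.

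Ftsj3, a methyltransferase of ribosomal RNA, read 315, 277 and 294 against 102, 254 and 91.8. Nop2, another such methyltransferase, read 341, 291 and 320.5 against 123, 277 and 135. Ddx18, a helicase, read 599, 664 and 642 against 375, 486 and 448. The differences were -1.05 ± 0.34, -0.86 ± 0.30 and -0.53 ± 0.19. Tumour 2 of the Notch1f/f group was just under the lowest Notch1+/+ value for Ftsj3 and Nop2, and clearly under it for Ddx18. With the mean of its probe sets Ddx18 had -0.35.

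Bop1, Pes1 and Wdr12 form the PeBoW complex, which is needed to process the precursor of 60S RNA. Their differences were -0.90 ± 0.32, -0.35 ± 0.19 and -0.42 ± 0.20. Pes1 and Wdr12 had groups without overlap, with Pes1 at 684, 534 and 613 against 436, 504 and 487. On a dimmer probe set past the filter both overlapped, with -0.18 for Pes1 and 0.21 for Wdr12. Bop1 overlapped, with values from 329.6 to 689 in the Notch1+/+ tumours and from 186 to 369 in the Notch1f/f tumours.

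The other members of the class overlapped on their brightest probe sets. They were Rrp1b (-0.97), Noc3l (-0.79), Nop16 (-0.55), the GTPase Gtpbp4 (-0.53), Noc2l (-0.47), Ebna1bp2 (-0.38), Nip7 (-0.32) and Nle1 (-0.17), each as a log2 difference. On another probe set Noc3l (-0.91), Rrp1b (-0.66) and Noc2l (-0.62) were lower without overlap, and Nip7 (0.30) was higher. On its dimmest probe set Rrp1b had -0.28 with overlap.

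**Figure D4:**
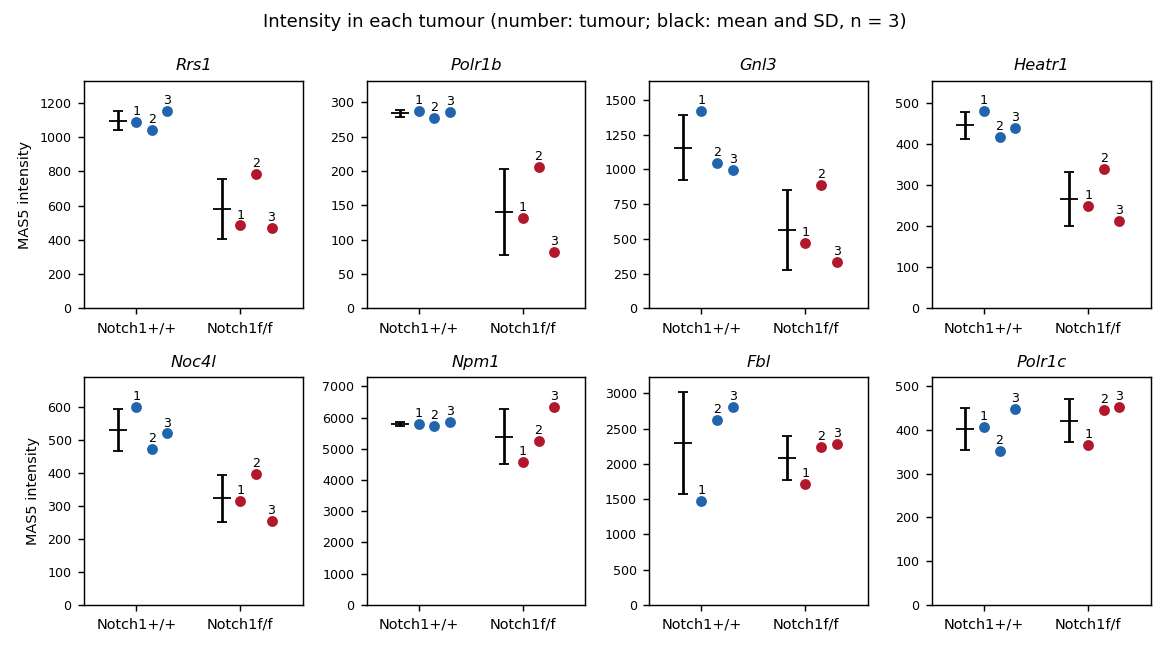
MAS5 intensity (y axis, linear, from 0) of 8 genes in each tumour, with the tumour's number above its point and the mean ± SD (n = 3) in black. Rrs1, Polr1b, Gnl3, Heatr1 and Noc4l show groups without overlap, while those of Npm1, Fbl and Polr1c overlap.

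Differences were set beside the brightness of the probe set. The 8 members with a mean intensity over 1000 (Polr1d, Ncl, Npm1, Fbl, Nop56, Dkc1, Nhp2 and Nop10) had a median log2 difference of -0.11, and the remaining 41 had -0.56. Within the 8 the range was wide, with Nop56 at -0.76, Dkc1 at -0.50 and Nhp2 at -0.36, and Gnl3 and Rrs1, with mean intensities of 861 and 837, had -1.11 and -0.94. Among the 24 dimmer members 13 had groups without overlap, and among the 25 brighter members 7. Of all genes at these levels, 9.25% and 8.70% were lower without overlap. Across the 49 members the rank correlation (Spearman) of mean intensity and difference was 0.42. Genes share the 6 arrays and are not independent replicates.

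Other probe sets of the same genes gave a further reading of the same RNA. Of 112 probe sets, 108 passed the filter, and 59 of these were not the brightest of their gene. Of the 59, 52 had a difference below 0 and 7 above 0, with a median of -0.41, and 16 were lower without overlap and 1, of Nip7, higher. Of all 27022 tested probe sets 55.0% were below 0, 10.4% were lower without overlap and 8.13% higher. In 30 of 36 members with such a second reading all probe sets had the same sign. The exceptions were Polr1c, Taf1d, Ncl, Imp4, Wdr12 and Nip7, whose probe sets ranged from -0.022 to 0.06, -0.71 to 0.68, -0.76 to 0.26, -0.41 to 0.07, -0.42 to 0.21 and -0.32 to 0.30.

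**Figure D5:**
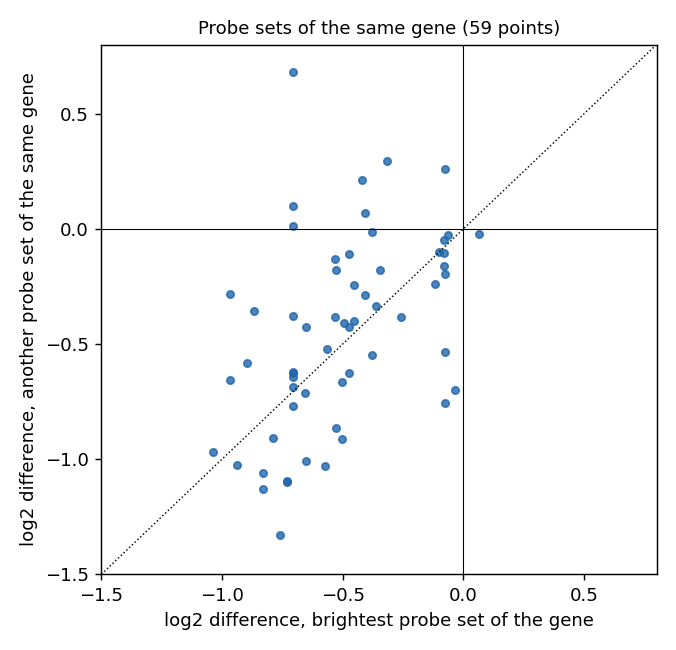
Log2 difference (Notch1f/f minus Notch1+/+) of the brightest probe set of a gene (x axis) against each of its other probe sets past the filter (y axis, 59 points). The dotted line marks equal values, and 52 points lie below 0 on the y axis.

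Further genes of the same process, none of them a member, were taken from 5 lists with 134 symbols, older names included. Of these 121 were measured and 120 tested. No gene passed an adjusted p of 0.05 in limma. A difference below 0 was found in 93 and above 0 in 27, with a median of -0.34. At an unadjusted p of 0.05 in limma 30 were lower and 3 higher, beside 6.21% and 6.97% of all genes, and groups did not overlap in 36 that were lower and 4 that were higher, where 9.14% and 9.21% of all genes did.

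Among 36 other processome and 40S factors, 31 were below 0. Ngdn, the neuroguidin protein of the processome, read 1272, 939 and 1049.5 against 622, 434 and 638, a difference of -0.94 ± 0.21 (limma adjusted p = 0.202). Here Notch1f/f tumour 2 was the lowest of all 6. Utp11 and Utp6, both processome subunits, had -0.84 ± 0.22 and -1.24 ± 0.36.

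Among 42 other 60S factors, 33 were below 0. Rpf2, the partner of Rrs1 in bringing in the 5S particle, read 320.3, 383 and 361 against 196, 162 and 220.2, a difference of -0.83 ± 0.21. Nvl, an ATPase of pre-60S remodelling, had -0.87 ± 0.30. Nop53, which recruits the exosome to the pre-60S particle, went the other way, with 1081, 1423 and 1533 against 2311, 1932 and 3152, a difference of 0.85 ± 0.22 (limma adjusted p = 0.244).

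Of 16 tested genes of the exosome and of ribosomal RNA trimming, 10 were below 0, with 7 lower without overlap and 1, Eri1 (0.33), higher, where 9.14% and 9.21% of all genes were. The exosome is the ring-shaped nuclease complex that trims RNA from its 3' end. Its subunits Exosc7, Exosc3 and Exosc8 had differences of -0.80 ± 0.23, -0.87 ± 0.27 and -0.74 ± 0.23, and none of the 3 had overlapping groups. In 15 genes of snoRNP assembly and rRNA modification, 12 were below 0, among them Shq1, a chaperone of dyskerin (-0.66 ± 0.27), Ruvbl2, an ATPase of snoRNP assembly (-0.72 ± 0.30), and its cofactor Rpap3 (-0.48 ± 0.21).

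The 11 further genes of RNA polymerase I and its factors had a median of -0.12. Of them 7 were below 0 (63.6%) and 2 lower without overlap (18.2%), beside 51.6% and 9.14% of all genes. Polr2f and Polr2e, subunits common to the nuclear RNA polymerases, had -0.71 ± 0.30 and -0.41 ± 0.26. Taf1b, a subunit of the selectivity factor beside Taf1d, had -0.50 ± 0.25.

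Myc is set beside these genes because many of them are its known targets. It read 781, 667 and 1198 in the Notch1+/+ tumours and 583, 945 and 419 in the Notch1f/f tumours, a difference of -0.47 ± 0.32 (limma adjusted p = 0.534). Notch1f/f tumours 1 and 3, the 2 with low ribosome biogenesis genes, had the lowest Myc values. Notch1f/f tumour 2 had the second highest of the 6, above Notch1+/+ tumours 1 and 2. Its median member stood at 0.12, and theirs at 0.19 and 0.24. Notch1+/+ tumour 2 had a Myc value near that of Notch1f/f tumour 1, with the median member at 0.24 and -0.43. A relation over 6 tumours of this kind was not tested.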

How the data were processed

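The authors deposited 1 MAS5 intensity per probe set and tumour on a linear scale, with MAS5 named in the submitters' processing notes without a version. In the deposited table each array's mean, with 2% of values trimmed at either end, was 100, so arrays had been scaled to that target. Affymetrix labelling of total RNA is per the labels' protocols. Symbols came from the platform's annotation table.

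Intensities were transformed to log2(intensity + 16). The 64 control probe sets and those with a mean under the 40th percentile (an intensity of about 7.60) were left out, leaving 27022 of 45101. Floxed and wild-type tumours were compared with lmFit and eBayes (trend) in limma 3.58.1 under R 4.3.3, two-sided, with Benjamini-Hochberg adjustment over those 27022 and no covariate, since the labels give no batch. The fit was tried on simulated arrays with planted shifts larger than the difference of any member. That trial does not show how well differences of the members' size are found. Counts over all genes use the brightest probe set of each gene. With 3 tumours a group, precision is limited by how few arrays there are. Depth has no meaning for arrays. The limma p-values set each difference against the spread between mice, moderated by the spread of other probe sets.

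The members, role classes, further lists and marker lists were chosen with earlier results of these data known. Named members are the 14 with the smallest p among those without overlap, up to 4 above 0, and the brightest of each of the 6 roles. Up to 3 genes, those with the smallest p, are named per further list. Eri1 and the per-tumour values of Ubtf, Nop56, Bysl, Pes1 and Bop1 fall outside these rules and were chosen after their values were seen. Promoter windows are from RefSeq (GRCm38.p6). Alternatives were pseudocounts of 1 and 64, a stricter filter (percentile 60) or none, median centring or quantile normalisation, array weights, no trend, no moderation, other probe set rules, a threshold of 0.10 and each tumour left out.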

Additional observations from a re-analysis of the deposited data

How the results depend on the processing

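No member was called at an adjusted p of 0.05 in limma in any alternative, and the smallest adjusted p of a named member in any of them was 0.0637, for Ftsj3. Over the 49 members, 45 to 48 were below 0, and all 44 that had a probe set lacking the suffixes of shared probes were below 0 on it. Over all alternatives the median difference lay between -0.70 and -0.44. The number with an unadjusted p under 0.05, 23 in limma, was 11 in a linear model without moderation (4.88% of all genes), and with 1 tumour left out in turn it ranged from 5 to 32 (3.03% to 9.72% of all genes). The number without overlap, 20, ranged from 20 to 41 in the same way (11.7% to 19.4% of all genes). It was 18 of 44 with those unshared probe sets. For them the share of all genes was not computed, while on the brightest probe sets it was 9.14%. Of the 20 named genes, 3 changed sign in some alternative. Polr1c had -0.022 with the unshared probe sets only, and ranged from -0.024 to 0.16 with 1 tumour left out. Fbl ranged from -0.39 to 0.070, with 0.022 and 0.030 among the values above 0, and Nop10 from -0.19 to 0.073, with 0.057. Taf1d had -0.22 with the mean of its probe sets. No paired analysis was possible because the labels give the tumours no shared replicate numbers. The dimmest member had a mean intensity of 78.4, well above the filter. Quantile normalisation and median centring moved the median of all genes to 0.02 and 0.03.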

Other observations

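In 3 of the 42 members with a window (7.14%), TGGGAA was the end of a longer run of letters, ACTACA followed after 1 base by TTCCCA on the strand of the gene. This run is known from promoters of many housekeeping genes, where the zinc finger protein ZNF143 binds it. It was noticed in the printed stretches, so it was looked for after they were seen. The 3 were Polr1b and Nop10, whose stretches are printed with the report, and Nop16, printed here for comparison with them. The capitals mark TTCCCA.
Nop16, chr13:54590072-54590101, minus strand: ctaaaactacatTTCCCAagaatccttgcg
Over all tested genes with a window it was found in 197 of 9745, or 2.02%, counted on both strands. Polr1b, Nop16 and Nop10 had log2 differences of -1.02, -0.55 and -0.06, and the median over the 197 genes was -0.06. No test was made of these counts.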
